A study of Mus musculus with 20 samples.

Results

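The miR-322, miR-503 and miR-351 cluster is a run of microRNA (miRNA) hairpins on the mouse X chromosome. Its 10 mature arms described here are mmu-miR-322-5p, mmu-miR-322-3p, mmu-miR-503-5p, mmu-miR-351-5p, mmu-miR-351-3p, mmu-miR-542-3p, mmu-miR-542-5p, mmu-miR-450a-5p, mmu-miR-450b-5p and mmu-miR-450b-3p, named below without the mouse prefix mmu. They were taken by name from tables that hold 1063 miRNAs in common, of which 813 passed the filter on low counts, all 10 arms among them. The study sequenced small RNA from 20 libraries of mouse embryonic stem cells on their way to epiblast stem cells, in the male line E14 and the female line PGK. Day 0 cells of both lines were kept in 2i medium, which holds cells in the naive state of the early embryo. All later cells of both lines were grown in N2B27 medium with Activin A and Fgf2 on fibronectin, which carries them to the primed state of the later epiblast. Each line was sampled at day 0, day 4, day 10, a stage of days 19 to 23 and a stage of days 27 to 30, with 1 library from each of the experiments diff2 and diff3. In the stage of days 19 to 23 the days were 21 and 19 in the male line and 23 and 21 in the female line. In the last stage they were 27 and 30 in the male line and 29 in both female samples. Each sex is represented by 1 cell line, so sex and line cannot be told apart. The day 0 samples of diff3 carry the day label D0 in both lines but the cell type label of the differentiating cells, and they were used as day 0.

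Mature miRNAs are cut from hairpins as a 5′ arm (5p) and a 3′ arm (3p), and pair with target messenger RNAs mainly through the seed, bases 2 to 8. The miR-15/16 family, to which miR-322 and miR-503 are counted, is known for lowering cyclins and other drivers of the G1 phase of the cell cycle. miR-322 is the mouse counterpart of human miR-424, and the cluster is known to rise as muscle precursors leave the cell cycle. miR-351 carries the seed of the miR-125 family, relatives of the worm miRNA lin-4. miR-542 and miR-450 lie further along the same strand and are less well known.

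In GRCm38 the 7 hairpins lie on the minus strand of chromosome X between positions 53047997 and 53054349, a span of 6353 bases. Mir322 (53054255 to 53054349) comes first in the direction of transcription, Mir503 (53053984 to 53054054) follows after 200 bases and Mir351 (53053255 to 53053353) after a further 630 bases. A gap of 3767 bases separates them from Mir542 (53049403 to 53049487), Mir450-2 (53048299 to 53048367), Mir450-1 (53048154 to 53048244) and Mir450b (53047997 to 53048078). RefSeq places Mir322, Mir503 and Mir351 inside the long noncoding RNA gene C430049B03Rik (53053112 to 53057190) and the other 4 hairpins outside it. GENCODE M21 ends that gene at 53055046, so that no hairpin lies within it, and places the noncoding gene Gm28730 (53051194 to 53053159) in the gap. miR-450a-5p can come from either Mir450-1 or Mir450-2, and the counts do not say which.

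The mature sequences below are RefSeq's, from GRCm38.p6, with the seed in capitals, and were chosen because they show which arms of the cluster share a seed with each other or with abundant miRNAs elsewhere in the genome.
miR-322-5p: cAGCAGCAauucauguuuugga
miR-16-5p: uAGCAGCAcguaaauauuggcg
miR-503-5p: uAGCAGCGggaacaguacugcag
miR-351-5p: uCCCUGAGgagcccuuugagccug
miR-125a-5p: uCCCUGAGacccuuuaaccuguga
miR-450a-5p: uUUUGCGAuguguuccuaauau
miR-450b-5p: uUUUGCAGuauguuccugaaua
miR-542-3p: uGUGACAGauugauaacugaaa

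With positions counted from 1 at the 5′ end, miR-322-5p and miR-16-5p had no difference in the seed but matched at 12 of 22 positions over their length. From miR-322-5p to miR-503-5p the seed changes by A8G, so the 2 arms of the cluster that are counted as relatives do not share an identical seed. From miR-450a-5p to miR-450b-5p it changes by G7A and A8G, with 15 of 22 positions identical. miR-351-5p shared all bases of its seed with miR-125a-5p and miR-125b-5p. In the count tables, miR-322-5p had 4 tested miRNAs of the same seed outside the cluster and miR-351-5p had 2, while miR-503-5p, miR-542-3p, miR-450a-5p and miR-450b-5p had none.

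Libraries held between 7112394 and 18031067 counts. On the CPM scale, counts relative to a library total of 1000000, the 3 counts that a count of 0 allows came to 0.166 to 0.422 CPM. At day 0 the naive-state arms miR-291a-3p, miR-294-3p and miR-295-3p (3 of 3 found) summed to 166087 to 220635 CPM in the female and 159967 to 209748 CPM in the male libraries. The miR-302/367 arms of primed cells (5 of 5 found) summed to 161 to 557 CPM at day 0 and to 8707 to 72059 CPM at later stages over both lines. Among the markers of other cells, let-7b and let-7c (2 of 2 found) summed to 1761 and 1868 CPM in the female day 0 libraries and to 175 and 243 CPM in the male ones. The mesenchymal markers miR-143, miR-145a, miR-199a and miR-214 (4 of 4 found) summed to 3741 to 8815 CPM in the female and 3220 to 6840 CPM in the male day 0 libraries, against 350 to 3043 CPM at later stages, and miR-214-3p among them was at 0 in all day 0 and day 4 libraries. miR-150, the 1 of 2 blood markers found, was at 228 to 1466 CPM at day 0 and at most 375 CPM later. The neural pair miR-9 and miR-124 summed to 163 to 1735 CPM and the muscle pair miR-1a and miR-133a to 0.548 to 71.9 CPM, while the liver marker miR-122 was at 0 to 0.0914 CPM. The part of these other cells in the results below was not tested. All RNA was from bulk cultures, so fewer cells carrying a miRNA and less of it per cell cannot be told apart.

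Levels below are CPM scaled by edgeR's TMM (trimmed mean of M values) factors and are given as the diff2 value followed by the diff3 value. The arms differed widely in level. Averaged over all libraries miR-351-5p stood at 2007 CPM, miR-322-5p at 795 CPM and miR-450b-5p at 630.0 CPM. miR-450a-5p (219 CPM), miR-542-3p (161 CPM) and miR-322-3p (136 CPM) followed, and the remaining 4 arms, miR-542-5p, miR-503-5p, miR-351-3p and miR-450b-3p, averaged 5.75 to 9.74 CPM. Levels of different miRNAs also depend on how well each sequence is captured in library preparation, so this order is one of counts. The 10 arms together took up 0.0867% ± 0.0354 (SD, n = 2) of all counts in male day 0 cells and 0.513% ± 0.103 (SD, n = 2) in female day 0 cells. By days 27 to 30 the shares were 0.726% ± 0.0562 (SD, n = 2) in the male and 0.545% ± 0.0209 (SD, n = 2) in the female line.

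**Figure D1:**
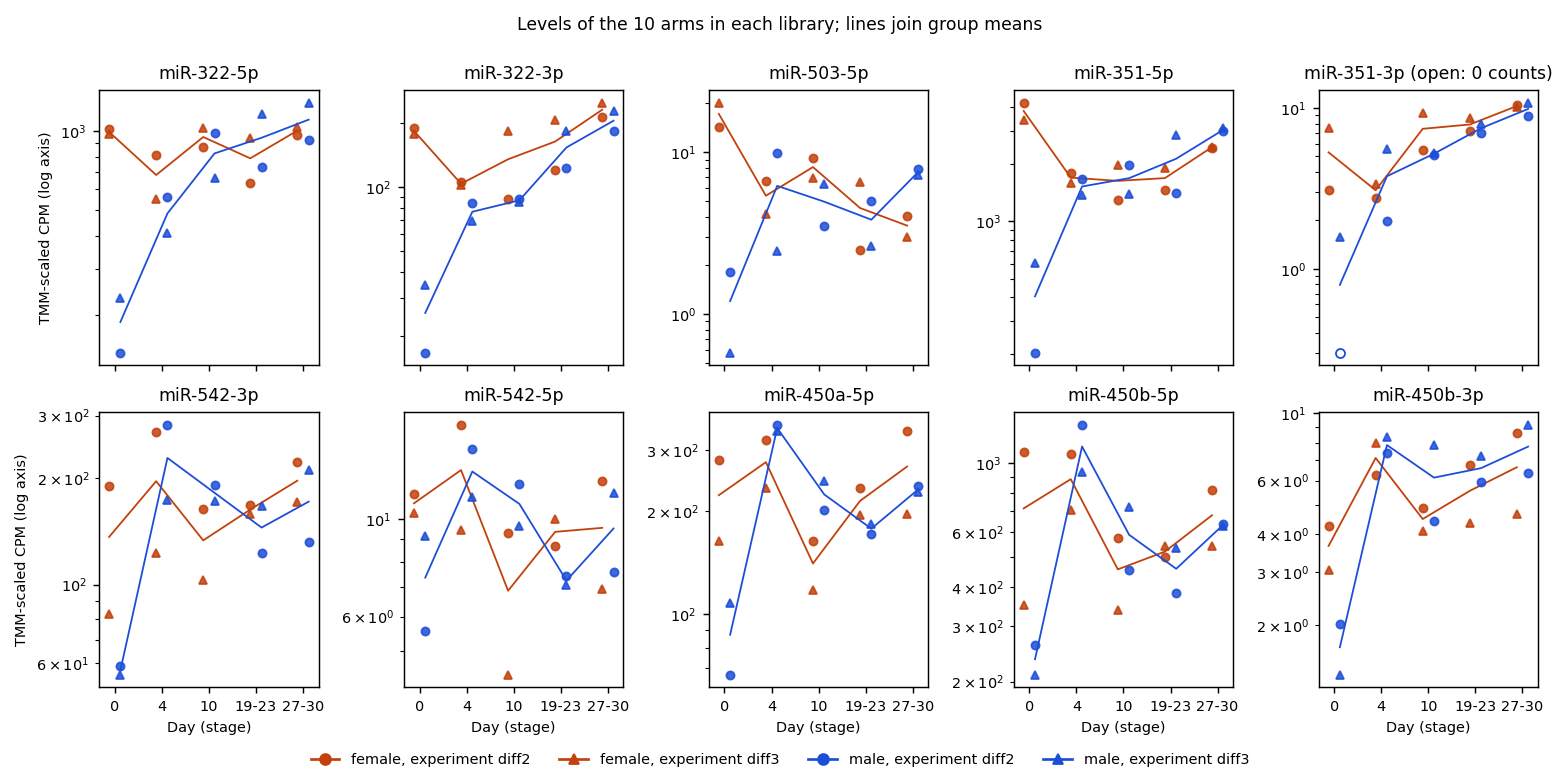
Level of each of the 10 arms in every library, as TMM-scaled CPM on a log axis against the stage in days, for the female line (orange) and the male line (blue). Circles are experiment diff2, triangles diff3, lines join the means of 2 libraries, and the open circle is a library with 0 counts drawn near the bottom of the axis. All 10 arms started lower in the male than in the female line at day 0.

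In the male line the cluster rose on leaving 2i medium and stayed up. Against day 0, 8 of the 10 arms rose by day 4 by edgeR's quasi-likelihood test with Benjamini-Hochberg adjustment (adjusted p under 0.05), where 25.1% of all 813 tested miRNAs rose and 18.3% fell. Of the 10 arms, 9 rose by day 10 (16.7% of all rose and 17% fell), 6 by days 19 to 23 (15.9% and 18.5%) and 9 by days 27 to 30 (19.6% and 21.2%), and none fell at any of these stages. The median log2 change of the 10 arms was 1.99, 1.81, 1.82 and 2.38 at the 4 stages in turn, beside 0.09, -0.04, 0.00 and 0.05 over all tested miRNAs. All 4 comparisons share the same day 0 libraries, and several arms share a hairpin, so neither the stages nor the arms are independent.

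Both arms of miR-322, the first hairpin of the cluster, rose at all 4 stages. In male cells miR-322-5p, the arm with the miR-15/16 seed, was at 144 and 233 CPM at day 0, 562 and 411 at day 4, 981 and 663 at day 10, 729 and 1155 at days 19 to 23, then 927 and 1281 at days 27 to 30. Every later library lay above both day 0 libraries. Its log2 change from day 0 was 1.37 ± 0.39 (SE) at day 4 (edgeR adjusted p = 0.0104) and 2.55 ± 0.40 at days 27 to 30 (edgeR adjusted p = 0.000213), a 5.86-fold rise. Its partner arm miR-322-3p went from 16.6 and 34.5 CPM to 84.1 and 68.9, 88.0 and 85.2, 123 and 184, and 183 and 227 CPM over the same stages, 8.01-fold from first to last (log2 3.0 ± 0.46, edgeR adjusted p = 0.000196). The ranking of the 5 male stages by mean was the order in time for both arms, as it was for both arms of miR-351, but between 1 later stage and the next none of the 10 arms passed the test. Over all tested miRNAs the 3 male steps called 8.12%, 0.246% and 0%, no arm had an unadjusted p under 0.05 at any of them, and DESeq2 called none.

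miR-351-5p, the arm with the miR-125 seed and the most abundant of the cluster, was at 204 and 604 CPM in male day 0 cells, 1671 and 1382 at day 4, 1987 and 1389.8 at day 10, 1412 and 2861 at days 19 to 23, then 2978 and 3087 at days 27 to 30. The day 0 libraries differed 2.96-fold from each other, more than those of any later male stage (1.04-fold to 2.03-fold), and both lay under every later library. The rise was 3.78-fold by day 4 (log2 1.92 ± 0.46, edgeR adjusted p = 0.00466) and 7.51-fold by days 27 to 30 (log2 2.91 ± 0.48, edgeR adjusted p = 0.00035). Its passenger arm miR-351-3p had 0 and 22 counts at day 0 and 111 and 145 counts at days 27 to 30, and rose at day 10, days 19 to 23 and days 27 to 30 (last stage log2 3.56 ± 0.88, edgeR adjusted p = 0.00578). At day 4 its log2 change of 2.17 ± 0.87 did not pass (edgeR adjusted p = 0.055), but did with the experiment as a block (adjusted p = 0.0252).

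miR-503-5p, which carries the altered seed, was scarce in male cells, at 1.83 and 0.577 CPM (20 and 8 counts) at day 0. It stood at 9.94 and 2.45 CPM at day 4, 3.49 and 6.40 at day 10, 5.01 and 2.64 at days 19 to 23, then 7.89 and 7.23 at days 27 to 30. The groups did not overlap at any stage, and it rose at days 4, 10 and 27 to 30 (last stage log2 2.67 ± 0.72, edgeR adjusted p = 0.0097) but did not pass at days 19 to 23 (log2 1.68 ± 0.72, adjusted p = 0.0848). Its male libraries held between 8 and 101 counts.

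On the TMM scale the miR-542 and miR-450 end of the cluster had another course in male cells, with its highest mean at day 4. miR-450b-5p was at 261 and 210.2 CPM at day 0, 1322 and 931 at day 4, 456 and 722 at day 10, 383 and 534 at days 19 to 23, then 639 and 628 at days 27 to 30. It rose 4.78-fold by day 4 (log2 2.26 ± 0.50, edgeR adjusted p = 0.00257). At day 10 its log2 change was 1.32 ± 0.48 (edgeR adjusted p = 0.0464), a call that ended in 18 of the 20 fits that left out 1 library. The log2 change was 0.96 ± 0.48 at days 19 to 23, which did not pass (adjusted p = 0.136), and 1.43 ± 0.48 at days 27 to 30, which did (adjusted p = 0.0291) but failed in 9 of those 20 fits. Both day 4 libraries were above all other male libraries, although the step down from day 4 to day 10 did not pass the test. In plain CPM, without the TMM factors, miR-450b-5p still had its highest mean at day 4 (911 and 944 CPM). The other arms of this end then had theirs at days 27 to 30. For miR-542-3p the plain values were 195 and 175 CPM at day 4 and 177 and 284 CPM at days 27 to 30.

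miR-450a-5p followed the same outline, from 66.7 and 108 CPM at day 0 to 356 and 340.4 at day 4, 202 and 245 at day 10, 171 and 184 at days 19 to 23, then 236 and 227 at days 27 to 30. Its rise was 3.99-fold at day 4 (log2 2.0 ± 0.40, edgeR adjusted p = 0.00139), and at days 19 to 23 its log2 change of 1.02 ± 0.39 fell short (adjusted p = 0.0545; 0.046 with the experiment as a block). miR-542-3p was at 58.9 and 55.7 CPM at day 0, 283 and 173 at day 4, 191 and 173 at day 10, 123 and 167 at days 19 to 23, then 132 and 211 at days 27 to 30, and rose at all 4 stages (day 4 log2 1.99 ± 0.49, edgeR adjusted p = 0.00485). Its call at days 19 to 23 (log2 1.34 ± 0.48, edgeR adjusted p = 0.0414) ended in 10 of the 20 fits that left out 1 library, with an adjusted p of up to 0.275 without the diff3 library of that group, and with no filter (0.0514). The scarce arm miR-450b-3p rose at all 4 stages as well, from 2.01 and 1.37 CPM at day 0 to 6.36 and 9.17 CPM at days 27 to 30 (log2 2.20 ± 0.48, edgeR adjusted p = 0.0026). miR-542-5p was the 1 arm that passed at no stage: it was at 5.57 and 9.15 CPM at day 0 and at 7.57 and 11.5 CPM at days 27 to 30 (log2 0.37 ± 0.46, edgeR adjusted p = 0.55).

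Within each experiment alone, the male change from day 0 on the log2(CPM + 1) scale was positive for all 10 arms at all 4 stages in diff2 and in diff3, except for miR-542-5p at days 19 to 23 in diff3 (-0.33). For miR-322-5p at days 27 to 30 it was 2.68 in diff2 and 2.46 in diff3, and for miR-351-5p 3.86 and 2.35. Single libraries weighed on the male counts. Of the 9 arms that rose by days 27 to 30, 5 passed when any of the 20 libraries was left out and under each of the 7 other settings that tested them: miR-322-5p, miR-322-3p, miR-351-5p, miR-351-3p and miR-450b-3p. The stricter filter of a mean of 10 CPM did not test miR-351-3p and miR-450b-3p. The count fell from 8 to 3 at day 4 without the diff2 library of male day 4 and to 4 without that of male day 0, from 9 to 3 at day 10 without the diff2 library of male day 0 or the diff3 library of male day 10 and to 5 without the diff3 library of male day 0, and from 6 to 3 at days 19 to 23 without the diff3 library of that group and to 4 without the diff3 library of male day 0.

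**Figure D2:**
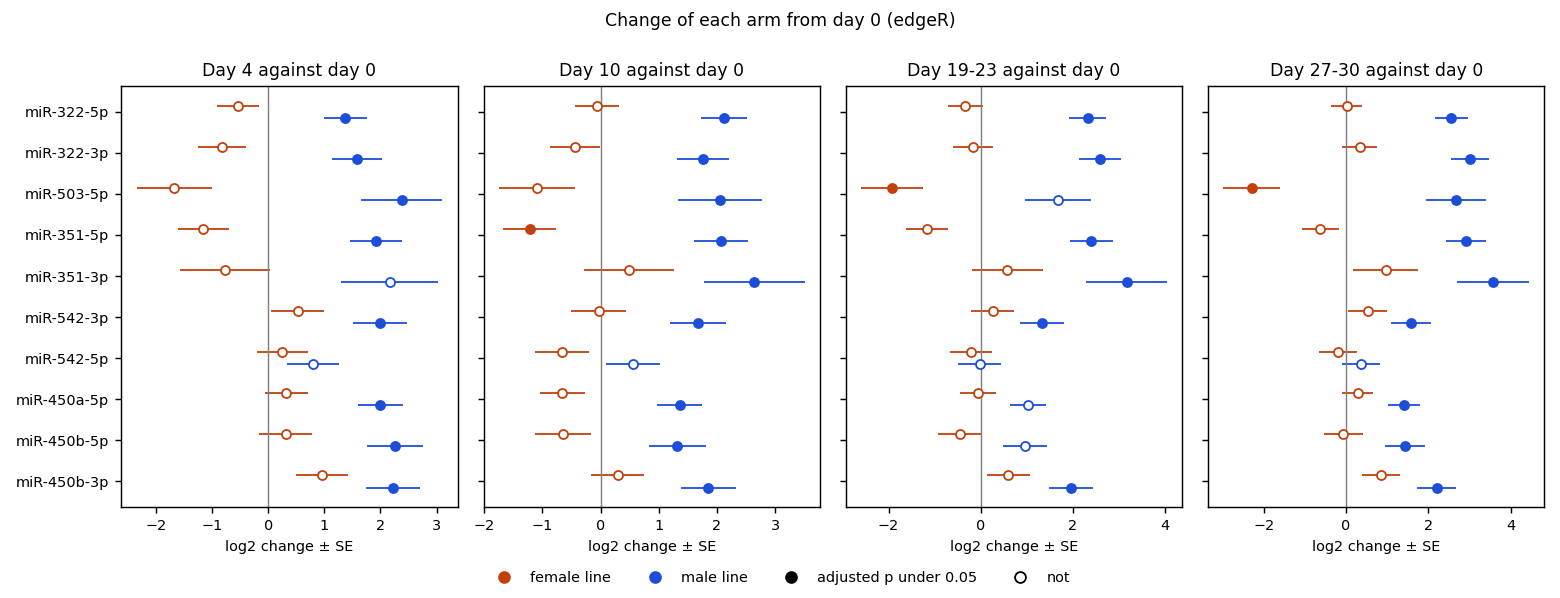
Log2 change of each arm from day 0 of its own line at the 4 later stages, with its SE, for the female line (orange) and the male line (blue), and filled where edgeR's adjusted p was under 0.05. At days 27 to 30, 9 of 10 male arms were called higher and 1 female arm, miR-503-5p, lower.

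In the female line the cluster was already high at day 0 and showed no common rise. At day 4 none of the 10 arms passed edgeR's quasi-likelihood test (24.5% of all tested miRNAs rose and 14.6% fell), with 2 arms at an unadjusted p under 0.05, miR-351-5p and miR-503-5p, and 2 called by DESeq2. These 2 also passed with the experiment as a block (edgeR adjusted p = 0.0402 for miR-351-5p and 0.0453 for miR-503-5p). At day 10, 1 arm fell (21.3% of all rose and 18.8% fell), at days 19 to 23, 1 (21.2% and 19.3%) and at days 27 to 30, 1 (24.1% and 19.4%), and none rose. Between later stages none passed at any of the 3 steps, which called 6.52%, 0.369% and 0% of all tested miRNAs; 1 arm had an unadjusted p under 0.05, from day 4 to day 10, and DESeq2 called none. The median log2 change of the 10 arms was -0.15, -0.55, -0.19 and 0.15 in turn, beside 0.03, 0.00, 0.06 and 0.01 over all tested miRNAs.

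The arms that fell in female cells were miR-351-5p and miR-503-5p. miR-351-5p was at 4212 and 3400.1 CPM at day 0, 1807 and 1592 at day 4, 1299 and 1969.6 at day 10, 1459.5 and 1919 at days 19 to 23, then 2441 and 2473 at days 27 to 30. Both day 0 libraries stood above all later female ones, and the fall passed at day 10 (log2 -1.22 ± 0.46, edgeR adjusted p = 0.044). At days 19 to 23 it did not pass (log2 -1.17 ± 0.45, adjusted p = 0.0511; 0.0343 with the experiment as a block), nor at days 27 to 30 (log2 -0.63 ± 0.45, adjusted p = 0.275). The day 10 call ended in 13 of the 20 fits that left out 1 library, with an adjusted p of 0.235 without the diff2 library of female day 10 and 0.179 without that of female day 0.

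miR-503-5p went from 14.2 and 20.2 CPM in female day 0 cells to 6.59 and 4.17 at day 4, 9.24 and 6.94 at day 10, 2.50 and 6.54 at days 19 to 23, then 4.03 and 3.01 at days 27 to 30. Every later library was below both day 0 libraries. It was called lower at days 19 to 23 (log2 -1.92 ± 0.68, edgeR adjusted p = 0.0338) and at days 27 to 30 (log2 -2.29 ± 0.69, edgeR adjusted p = 0.0142). Leaving out the diff3 library of female day 0 (adjusted p = 0.0989) or the diff2 library of female days 19 to 23 (0.189) ended the call at days 19 to 23, and leaving out either library of female days 27 to 30 (0.0523 and 0.0769) ended the later one.

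The other 8 arms passed at no stage in the female line. miR-322-5p was at 1014 and 969.6 CPM at day 0, 809 and 552 at day 4, 867 and 1030.4 at day 10, 634 and 940.3 at days 19 to 23, then 969 and 1037 at days 27 to 30. Its log2 change at the last stage was 0.02 ± 0.38 (edgeR adjusted p = 0.984), and the sign of this value turned with the scaling (-0.07 with RLE scaling). By group mean miR-322-3p was lowest at day 4, at 105 and 102 CPM, and highest at days 27 to 30, at 213 and 249 CPM, with neither stage called against day 0 (189.8 and 178 CPM). The lowest single female library was that of diff2 at day 10, at 87.4 CPM.

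In several miR-542 and miR-450 arms of female cells the experiments stood apart at the early stages. miR-450b-5p was at 1079 CPM in diff2 and 350.3 CPM in diff3 at day 0, and miR-542-3p at 190.3 and 82.5 CPM. At day 4 the 2 values were 1068 and 705 CPM for miR-450b-5p and 269 and 123 CPM for miR-542-3p. At days 19 to 23 they lay close together, at 500.0 and 540.3 CPM for miR-450b-5p and 168 and 158 CPM for miR-542-3p. In female cells the diff2 library was the higher for miR-450a-5p at all 5 stages, with 281 against 163 CPM at day 0 and 343 against 196 CPM at days 27 to 30. With this spread at day 0, the late log2 change of miR-450b-5p ranged from -0.80 without the diff3 library of female day 0 to 0.96 without the diff2 one.

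The lines were compared next at each stage. In naive day 0 cells both PGK libraries lay above both E14 libraries for all 10 arms, as they did for 19.8% of all tested miRNAs. By edgeR's quasi-likelihood test 5 arms were called higher (6.64% of all) and none lower (2.09% of all). The called arms were miR-503-5p (log2 3.85 ± 0.75, adjusted p = 0.00268), miR-351-5p (3.24 ± 0.49, 0.00055), miR-322-3p (2.84 ± 0.46, 0.000864), miR-322-5p (2.40 ± 0.40, 0.000986) and miR-450a-5p (1.35 ± 0.39, 0.0432), all edgeR values. In linear terms these differences ran from 2.55-fold for miR-450a-5p to 14.4-fold for miR-503-5p. The median over the 10 arms was 2.0, beside -0.03 over all tested miRNAs.

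The difference at day 0 was wider in the arms of the first 3 hairpins than in those of the last 4. Log2 differences were between 2.40 and 3.85 for the 5 arms of miR-322, miR-503 and miR-351 and between 0.56 and 1.60 for the 5 arms of miR-542 and miR-450, a contrast that was not tested. miR-351-3p (2.66 ± 0.87) and miR-450b-5p (1.60 ± 0.49) missed the threshold (edgeR adjusted p = 0.0741 and 0.0549) and passed with the experiment as a block (0.0288 and 0.0419). The call for miR-450a-5p ended when any of 19 libraries was left out, with an adjusted p of up to 0.462 without the diff2 library of female day 0, while the other 4 called arms passed in each of the 20 fits. let-7b and let-7c, listed as markers of differentiated cells, were higher in the same 2 female libraries, as given above. The marker arms of primed cells were lower in the same female libraries, at a sum of 161 to 184 CPM. In the male day 0 libraries they summed to 265 to 557 CPM. The remaining marker lists overlapped between the lines at day 0. miR-150 was at 228 to 771 CPM in the female and 354 to 1466 CPM in the male libraries. The neural pair summed to 163 to 255 CPM in the female and 210 to 311 CPM in the male ones. The part of these markers in the difference was not tested.

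At later stages no difference between the lines passed the test. None of the 10 arms passed at day 4 (5.04% of all tested miRNAs did), or at day 10, days 19 to 23 or days 27 to 30 (0% of all at each), and none reached an unadjusted p under 0.05 or was called by DESeq2 at any of these stages. The median log2 difference of the 10 arms was -0.17, -0.21, 0.13 and 0.03 in turn, beside 0.14, 0.09, 0.20 and 0.18 over all tested miRNAs. At days 27 to 30, miR-322-5p differed by -0.14 ± 0.38 (log2, SE) and miR-351-5p by -0.30 ± 0.45 between the lines. The difference of miR-503-5p at that stage was -1.11 ± 0.67 (edgeR adjusted p = 0.755), with both female libraries (4.03 and 3.01 CPM) below both male ones (7.89 and 7.23 CPM). At day 10 both female libraries also lay below both male ones for miR-450a-5p (log2 -0.67 ± 0.39) and miR-542-5p (-0.66 ± 0.46), among other arms without overlap in either direction. With 2 libraries a group, differences of the size of these errors were not detectable, and larger ones could be missed. In simulated counts the fit recovered 12% of 2-fold and 57% of 4-fold changes. That simulation was of male days 27 to 30 against day 0.

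**Figure D3:**
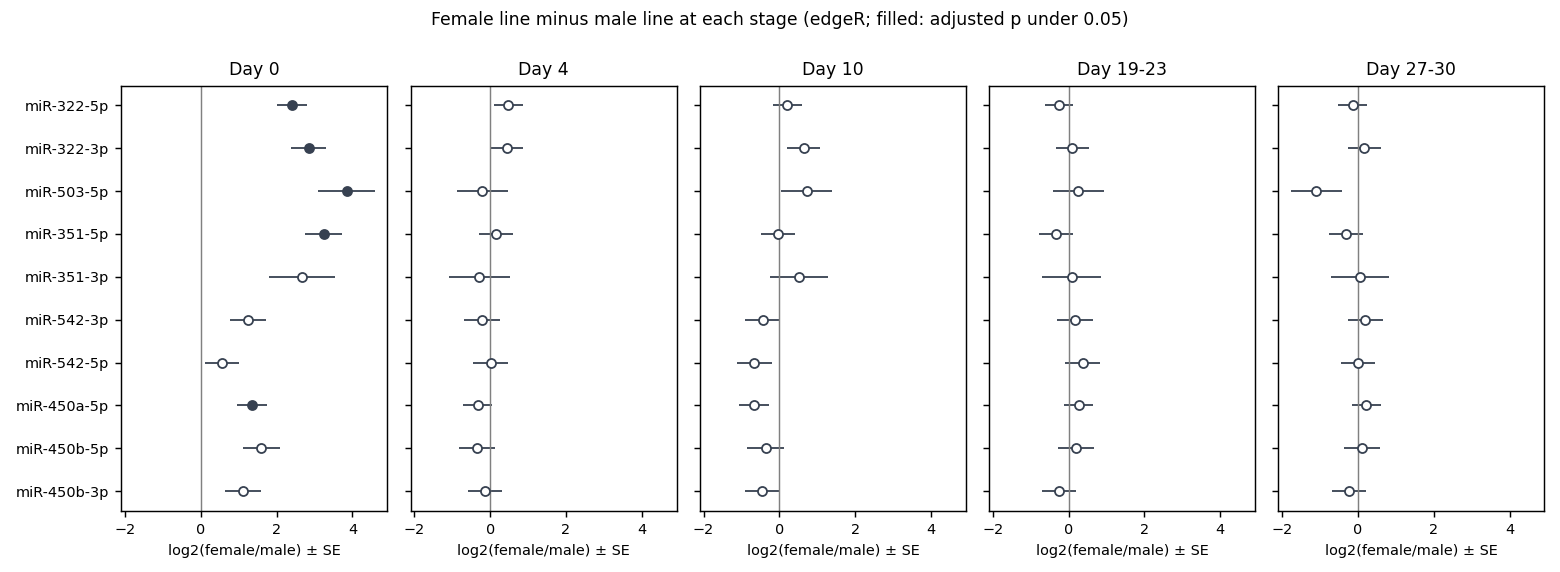
Log2 difference of the female line from the male line for each arm at the 5 stages, with its SE, and filled where edgeR's adjusted p was under 0.05. The 10 values at day 0 lie between 0.56 and 3.85, and no arm was called at the 4 later stages.

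A test of the difference between the lines in the change from day 0 gave negative values, a smaller rise or a larger fall in the female line, for all 10 arms at all 4 stages. These comparisons share the day 0 libraries with each other and with the day 0 comparison above. The medians were -1.93, -2.08, -2.0 and -2.02, beside 0.17, 0.15, 0.24 and 0.24 over all tested miRNAs. By edgeR none of the arms passed at day 4, at day 10 or at days 19 to 23 (0% of all at each), with 8, 8 and 5 arms at an unadjusted p under 0.05 and 4, 5 and 4 called by DESeq2. At days 27 to 30, 2 arms passed, of 3 miRNAs in all (0.369%): miR-503-5p (log2 -4.96 ± 1.0, edgeR adjusted p = 0.0488) and miR-351-5p (log2 -3.54 ± 0.65, edgeR adjusted p = 0.0488). With the experiment as a block, miR-322-3p, miR-322-5p and miR-351-5p passed at days 19 to 23 (edgeR adjusted p = 0.00874, 0.00908 and 0.00375), and miR-322-3p and miR-322-5p joined the 2 called arms at days 27 to 30 (0.0141 and 0.0177). Both unblocked calls are close to the threshold and ended in 13 (miR-503-5p) and 12 (miR-351-5p) of the 20 fits that left out 1 library, with an adjusted p of up to 0.267 without the diff2 library of female days 27 to 30.

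The balance between the first 3 and the last 4 hairpins differed between stages. The 5 arms of miR-322, miR-503 and miR-351 summed to 0.929 and 2.27 times the 5 arms of miR-542 and miR-450 in male day 0 cells. The ratio was 1.17 and 1.28 at day 4, 3.55 and 1.86 at day 10, 3.30 and 4.68 at days 19 to 23, then 4.02 and 4.24 at days 27 to 30. Male libraries of the last 2 stages all lay above those of the first 2. In female cells it was 3.47 and 7.51 at day 0, 1.63 and 2.09 at day 4, 2.48 and 5.63 at day 10, 2.43 and 3.39 at days 19 to 23, then 2.60 and 4.10 at days 27 to 30. Day 4 had the lowest female values, and at day 0 the female libraries were above the male ones. The depth of a library cancels in this ratio, which is given as a description without a test.

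**Figure D4:**
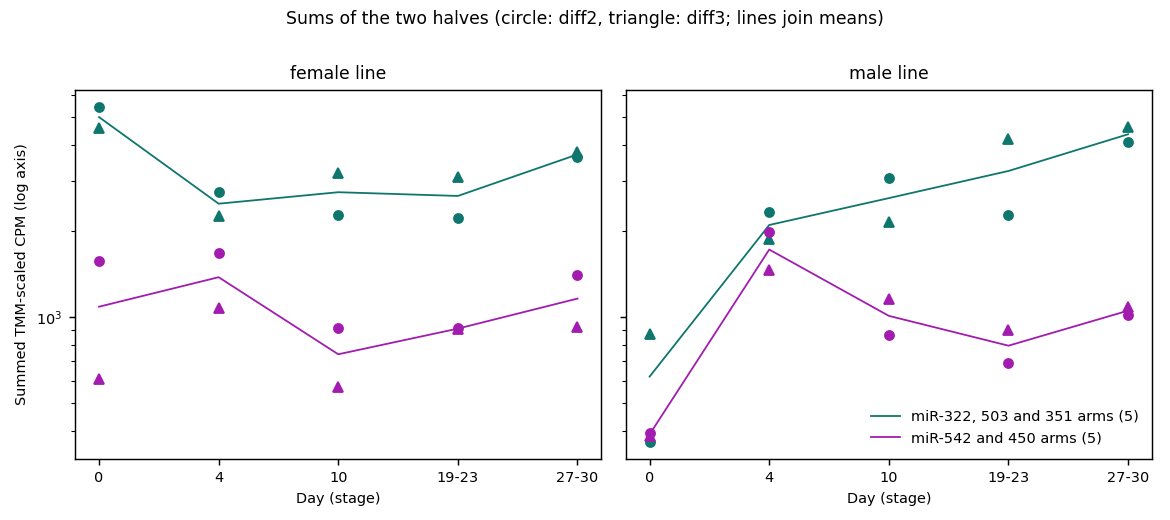
Summed level of the arms of miR-322, miR-503 and miR-351 (green) and of miR-542 and miR-450 (purple) as TMM-scaled CPM on a log axis against the stage, with circles for diff2, triangles for diff3 and lines through the means. On this TMM scale the purple sum of the male line is highest at day 4, while the green sum has its highest mean at days 27 to 30.

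For single arms the same shift was seen in miR-322-5p against miR-450b-5p. There was 0.551 and 1.11 times as much miR-322-5p as miR-450b-5p in male day 0 libraries, 0.425 and 0.441 at day 4, and 1.45 and 2.04 at days 27 to 30. The male day 4 ratios were the lowest of the 20 libraries, and the highest was 3.04, in the diff3 library of female day 10.

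Ratios between arms of the same hairpin varied to different extents. The 5p arm of miR-322 was 4.16 to 11.1 times its 3p arm over the 20 libraries (median 5.79). For miR-542 the dominant arm was the 3p one, at 6.08 to 24.7 times the 5p arm, and for miR-450b the 5p arm, at 64.3 to 254 times the 3p arm. The 5p arm of miR-351 outnumbered its 3p arm 202 to 1361 times in the 19 libraries with a count for both. Between hairpins, miR-351-5p was 1.42 to 4.15 times miR-322-5p and miR-450b-5p was 1.95 to 3.92 times miR-450a-5p. From lowest to highest library the ratio moved 2.68-fold for miR-322 and 6.74-fold for miR-351, and 2.01-fold for miR-450b-5p to miR-450a-5p, so sharing a hairpin did not go with the narrower range in all cases. Of the arms of these hairpins outside the 10, miR-503-3p had group means of 1.19 to 7.45 CPM, miR-450a-1-3p of 0.454 to 1.98 CPM and miR-450a-2-3p of 0.0456 to 0.435 CPM.

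How the 10 arms moved together differed in size between the lines. Over the 10 male libraries the 45 pairs of arms had a median Pearson correlation of log2 levels of 0.73 (0.24 to 0.96), and over the 10 female libraries of 0.01 (-0.71 to 0.87). These are descriptions, since libraries of 1 line share a culture history, all values share the scaling of their library, and the male values include the low day 0 pair. Over all 20 libraries miR-322-5p and miR-322-3p were the closest pair (0.93), and miR-351-3p and miR-542-5p the most distant (-0.06).

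The miRNAs outside the cluster with the seed of miR-322-5p had another course than it had in male cells. The miR-15/16 relatives of miR-322-5p are miR-16-5p, miR-15a-5p, miR-15b-5p and miR-195a-5p, which cut cyclin levels in many cells, and 2 of the 4 fell by days 27 to 30 in each line (beside 19.4% of all tested miRNAs in female and 21.2% in male cells) and none rose. miR-16-5p, by far the most abundant, was at 19654 and 31947 CPM in female day 0 cells and 11044 and 10377 CPM at days 27 to 30, and at 24582 and 28672 and then 10116 and 12536 CPM in male cells. Its log2 change was -1.27 ± 0.28 for PGK (edgeR adjusted p = 0.00193) and -1.23 ± 0.28 for E14 (edgeR adjusted p = 0.00325). miR-15a-5p fell too, by 1.31 ± 0.42 on the log2 scale in female cells (edgeR adjusted p = 0.0198) and 1.84 ± 0.42 in male cells (edgeR adjusted p = 0.0038). miR-15b-5p and miR-195a-5p passed in neither line, and at day 0 miR-195a-5p was lower in the female line (log2 -1.32 ± 0.33, edgeR adjusted p = 0.0149).

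miR-322-5p made up 0.537% and 0.724% of the summed CPM of itself and these 4 relatives in male day 0 cells, and 7.63% and 8.53% at days 27 to 30. In female cells the shares were 4.62% and 2.75% at day 0 and 7.36% and 8.30% at days 27 to 30. In no library did the cluster supply more than 8.53% of this seed.

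The relatives of miR-351-5p rose in both lines. miR-125a-5p went from 1962 and 2544 CPM at day 0 to 8622 and 7549 CPM at days 27 to 30 in female cells (log2 1.84 ± 0.31, edgeR adjusted p = 0.00021), and from 1757 and 1464 to 7687 and 7786 CPM in male cells (log2 2.26 ± 0.31, edgeR adjusted p = 6.12e-05). miR-125b-5p rose from 12.6 and 13.3 to 359 and 362 CPM in female cells (log2 4.80 ± 1.12, edgeR adjusted p = 0.00279) and from 3.29 and 23.1 to 105 and 436 CPM in male cells (log2 4.35 ± 1.09, edgeR adjusted p = 0.00641). Neither differed between the lines at day 0 by this test. Of the 3 arms with this seed, miR-351-5p made up 68.1% and 57.1% in female day 0 cells, 35.9% and 33.8% at day 4, and 21.4% and 23.8% at days 27 to 30. In male cells it made up 10.4% and 28.9% at day 0 and 27.6% and 27.3% at days 27 to 30.

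**Figure D5:**
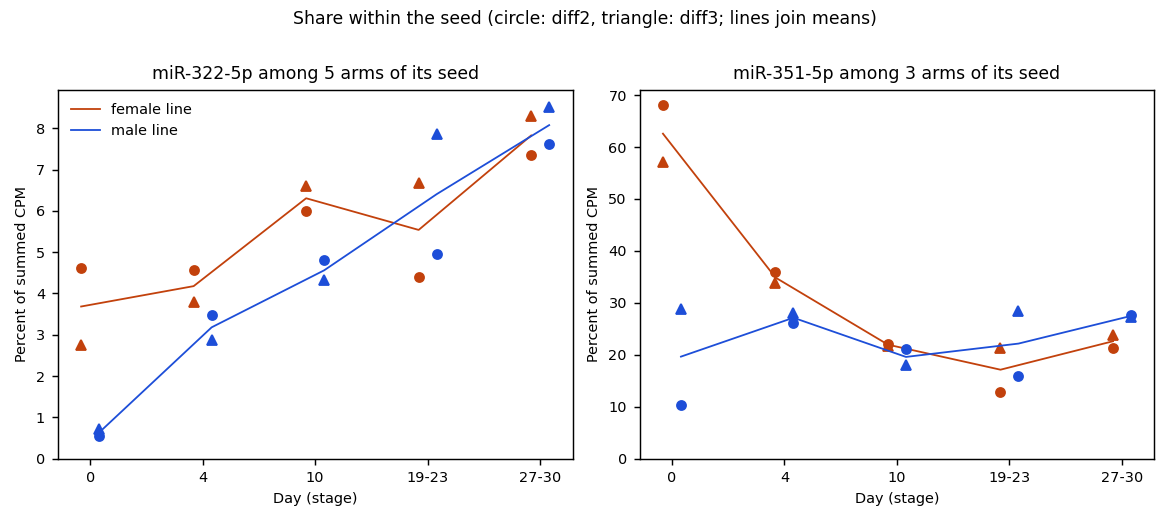
Share of miR-322-5p in the summed CPM of the 5 arms with its seed (left) and of miR-351-5p in that of the 3 arms with its seed (right), in percent against the stage, for the female line (orange) and the male line (blue). Circles are diff2, triangles diff3 and lines join means; the right panel starts at 57.1% to 68.1% in female and 10.4% to 28.9% in male day 0 cells.

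Other X-linked miRNAs shared part of the day 0 difference. Of 85 tested miRNAs encoded on the X chromosome outside the cluster, 32 had higher levels at day 0 in female cells and 6 had lower ones (6.64% and 2.09% of all tested miRNAs), with a median log2 difference of 1.5, beside 2.0 for the 10 arms. At day 4, 29 of the 85 were higher in female cells and 0 lower (5.04% of all tested miRNAs were called). Their median log2 difference was 0.65, beside -0.17 for the 10 arms, of which none passed. In male cells 15 of the 85 rose and 23 fell by days 27 to 30 (19.6% and 21.2% of all tested miRNAs), with a median of -0.30, beside 2.38 for the arms. In female cells 12 rose and 39 fell (24.1% and 19.4% of all tested miRNAs), with a median of -1.16, beside 0.15 for the arms. The difference between these lists was not tested.

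The 5 miRNAs whose profile over the 20 libraries was most like the mean profile of the 10 arms were found among 326 miRNAs outside the cluster with a mean of at least 50 CPM. They were miR-421-3p (Pearson r = 0.68 over the log2 levels of 20 libraries), miR-132-3p (0.64), miR-224-5p (0.63), miR-374b-5p (0.60) and miR-374c-3p (0.60). miR-224 and miR-374b and miR-374c lie on chromosome X, the last 2 overlapping on opposite strands, and miR-132 on chromosome 11. The RefSeq sequences used here held no position for miR-421-3p, so its place is not given. miR-374b-5p and miR-374c-3p had nearly the same mean level (156.0 and 155.9 CPM) and correlations, so they are not 2 separate cases. Whether the same reads were counted under both names was not tested. Within the male libraries their correlations with the cluster were 0.81 to 0.92, and within the female ones -0.61 to -0.14. Depth and scaling are shared by all of these values, which are given without a test.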

How the data were processed

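Small RNA of 20 libraries was measured as counts per mature miRNA. The raw tables of the authors, 1 per line, hold whole-number counts per miRNA and library, made per the labels from Illumina libraries of DNase-treated Trizol RNA. CASAVA 1.8.2, an unversioned DESeq2 and the builds GRCm38 and mm10 come from the submitters' processing notes. Which aligner and which miRNA annotation were used, and how reads matching several hairpins were counted, is not given in the sources used here. Normalized and variance-stabilized values deposited by the authors were not used. Members, lists and tests were chosen with earlier results of these data known.

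The tables hold 1091 (male) and 1109 (female) miRNAs, and the 1063 in both were used. edgeR 4.0.16, under R 4.3.3, fitted all 20 libraries together and gave quasi-likelihood F tests, with 1 coefficient for each of 10 groups, TMM scaling (factors 0.551 to 1.43) and filterByExpr, which left 813 miRNAs and 10 residual degrees of freedom. Benjamini-Hochberg adjustment ran over all 813 p-values within each contrast, at 0.05, and an SE is the log2 change over the root of its F. All 10 arms are named, seed relatives where their mean is at least 50 CPM, the X-linked list by counts, and the 5 most alike miRNAs by Pearson r of log2(CPM + 1). Of the 1063 names 854 had a RefSeq mature sequence, and only these could enter the lists of seed relatives and X-linked miRNAs. DESeq2 1.42.0, other scalings and filters, each line alone, and every library left out in turn were the alternatives. The script was tested on simulated data.

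Replicate numbers come from the experiment names diff2 and diff3 in the labels. Same-numbered samples were taken as paired in the fits with the experiment as a block and in the changes within each experiment. The main fit left this pairing out. Deviations from the group means of same-numbered samples correlated with a median of 0.403 between lines at the same stage (5 pairs, 0.108 to 0.626) and 0.0837 between stages of 1 line (20 pairs, 9 over 0.1). Within a line the values were 0.104 to 0.425 among days 0, 4 and 10, and 0.131 and 0.426 between the last 2 stages. Between the early and the late stages they were -0.133 to 0.240. Fits with the experiment as a block are given where they changed a call. The labels do not say that diff2 and diff3 began from separately thawed cells, so p-values measure the spread between these libraries. Precision is limited by 2 libraries a group and, for arms below 10 CPM, by low counts, down to 0 in 1 library.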

Additional observations from a re-analysis of the deposited data

Results flagged for a closer look

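The change from day 0 to days 27 to 30 differed between the lines for miR-503-5p, by -4.96 on the log2 scale (female change minus male change), by edgeR's test of that difference. The same test gave -3.54 for miR-351-5p. Both calls were close to the threshold (edgeR adjusted p = 0.0488). Neither was kept in every fit that left out 1 library, as given above. miR-503-5p had only 20 and 8 counts in the male day 0 libraries.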

How the results depend on the processing

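The numbers below count arms of the 10 called. In the female line at day 4, where none was called, 2 were with RLE scaling, library totals, no filter, the replicate block or DESeq2, and 3 with a 10 CPM filter or each line alone. At female day 10 the 1 call was 0 with library totals or no filter. At female days 19 to 23 the 1 call was 0 with library totals and 2 with RLE scaling, no filter, the replicate block, DESeq2 or the line alone. At female days 27 to 30 it was 0 with the 10 CPM filter, which leaves miR-503-5p untested. In the male line, day 10 went from 9 to 5 with the 10 CPM filter, since 3 of the called arms average under 10 CPM and were not tested and miR-450b-5p missed the threshold (adjusted p 0.0527). For the difference between lines in the change from day 0, day 4 went from 0 to 1 (10 CPM filter) or 4 (DESeq2), day 10 from 0 to 1 (no filter, 10 CPM filter) or 5 (DESeq2), and days 19 to 23 from 0 to 2 (RLE scaling, library totals), 1 (no filter), 3 (10 CPM filter, replicate block) or 4 (DESeq2). Days 27 to 30 went from 2 to 4 with RLE scaling, no filter, the replicate block or DESeq2. The block changed no other call than those given in the report.

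With 1 library left out, with the remaining sample of that group taken to spread as the other groups do, female counts ran from 0 to 4 at day 4 (4 without the diff3 library of male day 0), 0 to 1 at day 10, 0 to 2 at days 19 to 23 and 0 to 1 at days 27 to 30. Male counts ran from 3 to 8, 3 to 9, 3 to 8 and 6 to 9, the day 0 difference from 4 to 7, and the difference in change from 0 to 2, 0 to 1, 0 to 4 and 0 to 4. The cause was not tested.

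Of the uncalled female changes at days 27 to 30, some turned sign: miR-322-5p was -0.0695 with RLE scaling, -0.0161 with no filter, -0.064 with DESeq2 and -0.0778 with the line alone, and with library totals miR-542-5p was 0.20 and miR-450b-5p 0.33. Leaving out 1 library gave -0.14 to 0.0618 for miR-322-5p, -0.0802 to 1.26 for miR-542-3p, -0.69 to 0.0645 for miR-542-5p, -0.24 to 0.73 for miR-450a-5p and -0.80 to 0.96 for miR-450b-5p. Library totals shifted the median of all miRNAs by -0.28 to 0.68 (log2) over the contrasts, and RLE by -0.24 to 0.27. Between lines at later stages, 206 of 1024 arm values had the other sign and 0 were called. Depth limits miR-503-5p, miR-351-3p and miR-450b-3p most.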
